A study of Mus musculus with 2 samples.

Results

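The chromatin around 10 genes of the YAP-TEAD system was described in mouse mammary organoids with and without induction of a short hairpin RNA against Trps1. The genes were the coactivators Yap1 and Wwtr1 (which encodes TAZ), the DNA-binding partners Tead1, Tead2, Tead3 and Tead4, and the target genes Ccn1, Ccn2, Amotl2 and Ankrd1. Accessible regions were assigned to a gene when they overlapped its body or lay within 50 kb of one of its transcription start sites (TSS). This gave 220 of the 174940 regions that had a peak in both libraries, of which 171 lay away from any promoter. Each of the 10 genes had between 13 regions (Ankrd1) and 39 regions (Tead1), and each had at least 1 region at its own promoter.

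Organoids are clusters of primary mammary cells grown in matrigel. They came from C57BL/6J mice of the genotype shTRPS1.34 ki/+; CAG-rtTA3 tg/+, so both groups carried the inducible shRNA and the reverse transactivator rtTA3, which the ubiquitous CAG promoter drives. This follows the genotype labels, whereas a legend of the study describes the mice as wild type, and the mice cannot be checked by these data. One group received doxycycline at 0.1 µg/ml for 7 days (DOX), and the control received ethanol for the same time (EtOH). The control differed in the drug as well as in the shRNA it induces, so an effect of doxycycline itself and of Trps1 depletion cannot be told apart. Cells of several mice were mixed before loading and each group was 1 library, so no difference below has a replicate check and no p-value is given. The intervals are 95% intervals for counting error only.

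YAP and TAZ are coactivators without a DNA-binding domain of their own. When the kinases of the Hippo pathway are active, YAP and TAZ are phosphorylated and held in the cytoplasm. Otherwise they enter the nucleus and bind TEAD factors on the sequence GGAATG, next to which AP-1 sites are often found. Ccn1 and Ccn2 encode secreted matricellular proteins, Amotl2 an angiomotin that binds YAP in turn, and Ankrd1 a nuclear ankyrin-repeat protein, and all are widely used as readouts of YAP activity. In the mammary gland, YAP and TAZ have been linked to the basal lineage and to regenerating epithelium. TRPS1 is a GATA-type zinc-finger repressor. Single-cell ATAC-seq measures where a transposase can cut the DNA, and so reports accessibility and not expression.

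DOX held 3071 nuclei with 224762118 counts and EtOH 3104 nuclei with 211963715 counts, where 7600 nuclei had been loaded in each with a target of 5000. The median was 75195 counts per nucleus in DOX and 66701 in EtOH, and 23 cell barcodes occurred in both libraries. Over all nuclei, the Trps1 promoter itself was at 40.4 CPM (counts scaled to the total of each library in the shared regions) in DOX and 25.3 CPM in EtOH. Accessibility of a promoter does not measure the depletion of an mRNA by an shRNA, so the knockdown was not checked by these data. Nuclei with counts at 2 or more of the macrophage and leukocyte genes Ptprc, Csf1r and C1qb were called immune-open. They were 46.3% of DOX (44.5% to 48.1%) and 18.1% of EtOH (16.8% to 19.5%), and with every nucleus thinned to 10000 counts 26.9% and 6.59%. The 8 immune marker genes summed to 292 CPM in DOX and 119 CPM in EtOH over all nuclei, and to 82.9 CPM and 75.3 CPM without the immune-open nuclei. Ptprc, Csf1r and C1qb are among the 8, so part of this fall was set by the rule itself. Over all nuclei 7 of the 8 were higher in DOX (Cd3e, a T cell gene, was not), and none was at 0 in either set. Without immune-open nuclei most of the sum was Spi1, at 53.9 CPM in DOX and 50.2 CPM in EtOH. Lyz2 (1.61 and 0.798 CPM) and C1qb (0.417 and 0.190 CPM) stayed higher in DOX there. Of the 8 genes only Csf1r was lower in DOX in that set (9.53 and 11.1 CPM). The hormone-sensing luminal markers summed to 346 CPM in DOX and 373 CPM in EtOH without immune-open nuclei, and the basal markers to 382 and 358 CPM. Every comparison below was therefore made in both sets of nuclei, the second with 1649 DOX and 2541 EtOH nuclei.

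The sequences at which the comparisons turn are printed first, in the build of the files (mm10, which is GRCm38), with matches to the searched motifs in capitals. The TEAD motif searched was GGAATG. The motif of AP-1, a dimer of Fos and Jun proteins, was TGANTCA. That of GATA factors, the family to which TRPS1 belongs, was AGATAA. The CArG box bound by SRF was searched as well, and all were searched on both strands, so capitals may show the complement. Both promoters hold the 250 bases before the RefSeq start (GRCm38.p6) on the strand of the gene. They are shown because Ankrd1 was the promoter that differed most and Ccn1 one that differed less. Of the 10 genes, 7 had an entry in the promoter table, and Tead1, Tead4 and Ccn2 had none. Among 32851 promoters of the same length, 12.6% held a TEAD match, 9.99% a GATA match, 6.75% an AP-1 match and 1.47% a CArG match. Of the 7 genes with an entry, Yap1, Wwtr1, Tead3, Ccn1, Amotl2 and Ankrd1 held a TEAD match in at least 1 entry, and Tead2 held none. Only Ankrd1 held a GATA match, and none held an AP-1 or CArG match.
Ankrd1 promoter (chr19:36119845-36120094, minus strand): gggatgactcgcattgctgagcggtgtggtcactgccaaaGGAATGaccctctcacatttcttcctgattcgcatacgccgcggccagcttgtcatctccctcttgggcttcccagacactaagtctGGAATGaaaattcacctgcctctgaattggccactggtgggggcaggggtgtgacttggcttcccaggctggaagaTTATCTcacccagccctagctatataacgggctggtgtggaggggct
Ccn1 promoter (chr3:145649986-145650235, minus strand): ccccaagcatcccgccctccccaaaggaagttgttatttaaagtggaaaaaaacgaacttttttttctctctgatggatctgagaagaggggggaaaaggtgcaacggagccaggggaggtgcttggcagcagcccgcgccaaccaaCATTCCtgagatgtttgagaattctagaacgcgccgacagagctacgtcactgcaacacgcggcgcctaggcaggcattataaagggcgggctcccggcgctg
The Ankrd1 window holds 2 TEAD matches and 1 GATA match. The Ccn1 window holds 1 TEAD match. The 6 windows that follow are 300 bases each of the plus strand, placed where they hold the most matches. They come from distal regions at least 2-fold apart, each the highest or lowest of its gene among those with at least 200 counts. The choice among such regions was made after their values were seen, and others were as far apart or farther.
Ankrd1 upstream region (chr19:36140384-36140683): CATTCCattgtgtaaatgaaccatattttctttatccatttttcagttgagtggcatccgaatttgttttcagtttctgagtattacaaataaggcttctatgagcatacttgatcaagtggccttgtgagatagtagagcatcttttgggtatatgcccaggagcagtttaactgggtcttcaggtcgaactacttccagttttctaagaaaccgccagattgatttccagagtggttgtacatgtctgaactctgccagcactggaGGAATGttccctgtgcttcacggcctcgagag
Ankrd1 near upstream region (chr19:36126957-36127256): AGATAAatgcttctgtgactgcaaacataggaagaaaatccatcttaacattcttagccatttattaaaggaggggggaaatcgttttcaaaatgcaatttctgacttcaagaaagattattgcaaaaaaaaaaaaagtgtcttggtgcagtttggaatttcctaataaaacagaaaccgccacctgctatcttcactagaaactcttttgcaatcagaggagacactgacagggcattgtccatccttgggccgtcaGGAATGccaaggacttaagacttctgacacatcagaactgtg
Tead1 upstream region (chr7:112656264-112656563): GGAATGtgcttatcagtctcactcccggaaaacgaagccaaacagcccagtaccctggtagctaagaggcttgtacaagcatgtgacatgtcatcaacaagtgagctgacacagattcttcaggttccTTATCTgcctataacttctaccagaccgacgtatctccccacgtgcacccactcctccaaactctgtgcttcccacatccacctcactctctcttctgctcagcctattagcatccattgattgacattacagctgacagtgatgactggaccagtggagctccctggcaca
Wwtr1 intron region (chr3:57554579-57554878): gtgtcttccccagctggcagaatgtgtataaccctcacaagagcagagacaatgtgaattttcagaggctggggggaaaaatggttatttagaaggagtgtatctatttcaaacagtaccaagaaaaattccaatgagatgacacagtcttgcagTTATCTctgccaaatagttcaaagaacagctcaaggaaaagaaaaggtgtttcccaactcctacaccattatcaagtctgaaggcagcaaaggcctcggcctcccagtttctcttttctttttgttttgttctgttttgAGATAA
Tead4 intron region (chr6:128225564-128225863): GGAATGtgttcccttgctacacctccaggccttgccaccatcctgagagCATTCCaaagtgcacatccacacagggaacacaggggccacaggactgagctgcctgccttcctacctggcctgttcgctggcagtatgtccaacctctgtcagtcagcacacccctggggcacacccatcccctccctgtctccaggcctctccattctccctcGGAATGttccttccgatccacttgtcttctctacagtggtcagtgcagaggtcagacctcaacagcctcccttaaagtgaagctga
Ccn1 upstream region (chr3:145692108-145692407): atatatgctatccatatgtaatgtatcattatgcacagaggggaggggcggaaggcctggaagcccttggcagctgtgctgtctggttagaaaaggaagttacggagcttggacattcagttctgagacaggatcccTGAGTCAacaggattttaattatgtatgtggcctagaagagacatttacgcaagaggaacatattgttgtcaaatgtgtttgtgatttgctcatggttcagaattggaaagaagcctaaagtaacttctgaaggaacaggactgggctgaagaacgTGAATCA
The first 4 were more accessible in DOX and the last 2 were less accessible. The Tead4 window holds 3 TEAD matches, the Ankrd1 upstream window 2 TEAD matches, and the Ccn1 window 2 AP-1 matches. The Wwtr1 window holds 2 GATA matches and no TEAD match.

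At the promoters of the coactivators and of the TEAD factors, DOX was below EtOH over all nuclei. Without immune-open nuclei their log2 ratios lay between -0.20 (Tead4) and 0.26 (Wwtr1), where all promoters had quartiles of -0.07 and 0.09. Wwtr1 was then at percentile 91.6 of all promoters compared, Tead3 at 14.1 and Tead4 at 10.3. Yap1, Tead1 and Tead2 lay between percentiles 32.8 and 68.1. Promoter values add up the shared regions of a gene that reach within 1 kb of one of its TSS. The Yap1 promoter (gene at chr9:7931999-8004596) was at 28.5 CPM in DOX and 39.5 CPM in EtOH over all nuclei, a log2 ratio of -0.47 (-0.54 to -0.40). Without immune-open nuclei it was at 43.4 and 41.6 CPM, and the log2 ratio of 0.06 had an interval that spans 0 (-0.02 to 0.14). The Wwtr1 promoter (gene at chr3:57455649-57575910) went from a log2 ratio of -0.21 to one of 0.26 (0.19 to 0.34), with 44.9 CPM in DOX and 37.4 CPM in EtOH in the second set. Over its alternatives the Wwtr1 ratio ranged from 0.04 to 0.31, and by nuclei with any count (0.04, -0.12 to 0.20) it did not differ from 0 beyond counting error.

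Of the TEAD genes, Tead1 (chr7:112679318-112906807) had a promoter log2 ratio of -0.50 over all nuclei and of 0.03 (-0.05 to 0.11) without immune-open nuclei. Its promoter was then at 38.5 CPM in DOX and 37.6 CPM in EtOH. The Tead2 promoter (gene at chr7:45215753-45233644) was the least accessible of the 4, at 14.5 CPM in DOX and 14.9 CPM in EtOH, with a log2 ratio of -0.04 (-0.17 to 0.09) in place of -0.45. The Tead3 promoter (gene at chr17:28331671-28350817) was at 30.9 and 34.2 CPM and kept a small difference of -0.15 (-0.24 to -0.06). The Tead4 promoter (gene at chr6:128224288-128300823) was at 36.2 and 41.5 CPM, a log2 ratio of -0.20 (-0.28 to -0.12), where the ratio over all nuclei was -0.73. Tead3 and Tead4 were the TEAD genes whose promoters stood lower in DOX, beyond counting error, in both sets of nuclei. By nuclei with any count without immune-open nuclei, the interval of Tead3 spanned 0 (-0.12, -0.29 to 0.05) and that of Tead4 did not (-0.16, -0.31 to -0.0043). The values near 0 of Yap1, Tead1 and Tead2 changed sign under at least 1 other scaling or choice of nuclei.

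Among the target genes, Ccn1, Ccn2 and Amotl2 behaved like the factors over all nuclei and Ankrd1 did not. The Ccn1 promoter (gene at chr3:145646976-145649981) moved from a log2 ratio of -0.31 to one of 0.21 (0.11 to 0.30), at 30.5 CPM in DOX and 26.4 CPM in EtOH in the second set. Its interval reached below 0 by nuclei with any count (0.10, -0.07 to 0.28) and with immune-open defined at all 3 genes (0.083, -0.0036 to 0.17). The Ccn2 promoter (gene at chr10:24595442-24598683) moved from -0.23 to 0.32 (0.23 to 0.41), at 34 and 27.3 CPM. The Amotl2 promoter (gene at chr9:102716672-102733418) was the most accessible of the 10, at 87.3 and 87.1 CPM, with a log2 ratio below 0.01 in size (0.0024, -0.05 to 0.06) whose sign depended on the scaling. The Ankrd1 promoter (gene at chr19:36111961-36120099) was the least accessible, at 5.37 CPM in DOX and 2.28 CPM in EtOH over all nuclei, and at 8.64 and 2.42 CPM without the immune-open nuclei. Its log2 ratio was 1.24 (1.02 to 1.47) and then 1.84 (1.59 to 2.09), and it was the only one of the 10 promoters at least 2-fold apart in either set. Of all promoters of protein-coding genes, 3.43% were at least 2-fold higher in DOX over all nuclei and 0.813% without immune-open nuclei, and 1.66% and 0.694% at least 2-fold lower. The Ankrd1 value was at percentile 97.4 and then 99.9 of all promoters compared. In the second set Ccn2 was at percentile 93.4, Ccn1 at 89.1 and Amotl2 at 46.7. With shared regions within 2500 bp counted as promoter, the exonic region at 2.05 kb, lower in DOX, was added and the log2 ratio was 0.31 over all nuclei and 0.87 without immune-open nuclei. The order of the promoter levels in DOX without immune-open nuclei was Amotl2, Wwtr1, Yap1, Tead1, Tead4, Ccn2, Tead3, Ccn1, Tead2 and Ankrd1. Neighbours in this order whose intervals overlapped were Wwtr1 and Yap1, Tead1 and Tead4, Tead4 and Ccn2, and Tead3 and Ccn1, and levels of different promoters also depend on the width of their regions.

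**Figure D1:**
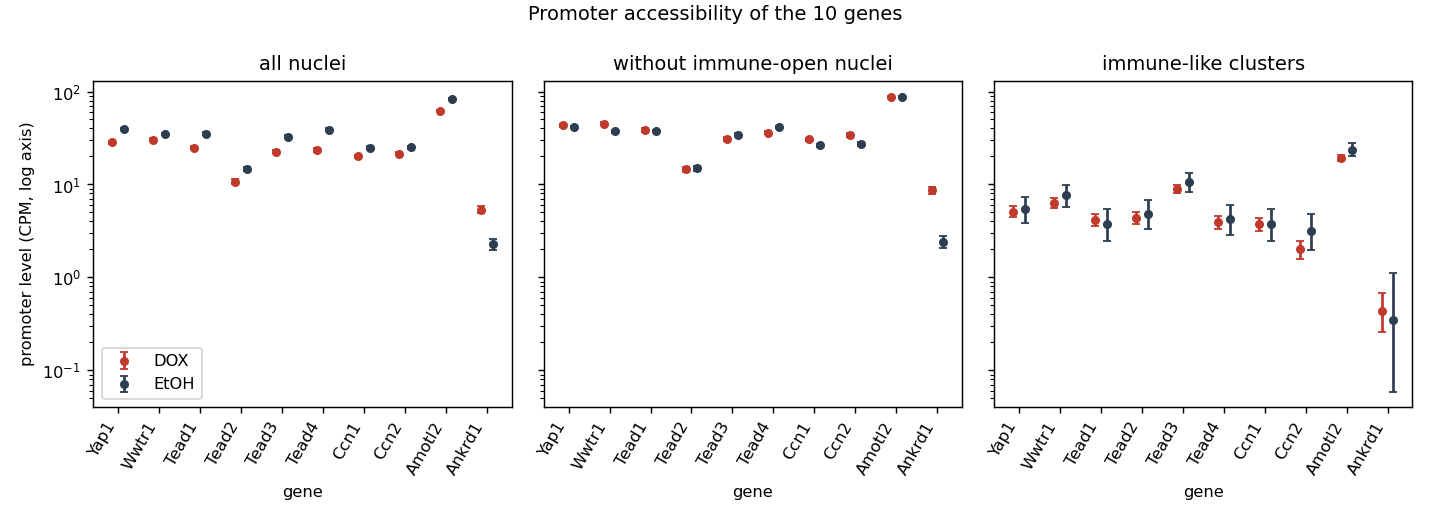
Promoter accessibility of the 10 genes (x axis) in CPM on a log axis (y axis), as points with 95% exact Poisson intervals, in DOX (red) and EtOH (dark) for all nuclei, for the nuclei without immune-open ones, and for the immune-like clusters. Ankrd1 is the one gene whose points are far apart in the first 2 panels, and all 10 promoters are lower in the immune-like clusters than in the middle panel.

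Without immune-open nuclei, 348 of 1649 DOX nuclei had a count at the Ankrd1 promoter (21.1%, 19.2% to 23.2%), and 159 of 2541 EtOH nuclei had one (6.26%, 5.35% to 7.27%). In the immune-like clusters, which serve as the background for nuclei that lack this promoter, the share was 1.25% in DOX and 1.06% in EtOH. Median depths of the DOX and EtOH nuclei were 64495 and 61800 counts, and 68634 and 52104 counts in the immune-like clusters. Thinned to 10000 counts, with 141 DOX and 130 EtOH nuclei left out as too shallow, the shares were 7.89% and 2.20%, against 0.160% and 0.364% in the immune-like clusters. The Ccn2 promoter had a count in 53.9% of DOX and 48.5% of EtOH nuclei, and in 26.1% and 20.3% after thinning. The share of nuclei with an Ankrd1 count was thus higher in DOX before and after thinning, and since it depends on depth it does not give the share of nuclei in which the promoter was open.

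In the immune-like clusters the promoters of the 10 genes were little accessible. Nuclei were clustered without regard to the library, and clusters were named from fixed marker genes. The immune-like clusters held 1283 DOX nuclei and 283 EtOH nuclei. There the Ccn2 promoter was at 1.998 CPM in DOX and 3.15 CPM in EtOH, the Yap1 promoter at 5.09 and 5.39 CPM, and the Ankrd1 promoter at 0.433 and 0.350 CPM. Amotl2 was the highest there, at 19.3 CPM in DOX and 23.8 CPM in EtOH, and Tead3 followed at 8.99 and 10.6 CPM. Within the immune-like clusters the log2 ratio of 9 of the 10 promoters had an interval that spans 0. The exception was Amotl2, at -0.30 (-0.54 to -0.05). The Trps1 promoter, not one of the 10, was at 58.4 CPM in DOX and 59.2 CPM in EtOH in these clusters, and at 28.9 and 22.7 CPM outside them. In nuclei outside these clusters the Ankrd1 promoter had a log2 ratio of 1.82 (1.59 to 2.05) and that of Ccn2 one of 0.34 (0.26 to 0.43). With accessibility summed over nuclei, fewer nuclei of a type and lower accessibility in each cannot be told apart in the comparison of all nuclei.

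The remaining nuclei fell into clusters that differed between the libraries. A luminal progenitor-like (LP-like) cluster held 57 DOX and 1644 EtOH nuclei, and a pair of hormone-sensing luminal-like (HS-like) clusters together held 111 DOX and 1009 EtOH nuclei. A cluster that no marker list named held 1477 DOX and 7 EtOH nuclei. These were most of the DOX nuclei outside the immune-like clusters, and a cluster of 1 library may be that library and not a type. A further unnamed cluster held 99 DOX and 141 EtOH nuclei and had its highest marker medians for fibroblast and basal genes, while that of the DOX cluster was for basal genes and under the level needed for a name. The Ankrd1 promoter was at 9.37 CPM (5.36 to 15.2) in the DOX nuclei of the LP-like cluster and at 3.57 CPM (3.07 to 4.13) in its EtOH nuclei. In the unnamed DOX cluster it was at 9.54 CPM. In the larger HS-like cluster it was at 1.65 CPM in DOX and 0.725 CPM in EtOH, and in the fibroblast- and basal-marker cluster at 1.88 and 1.63 CPM. Within the LP-like cluster the log2 ratio was 1.39 (0.55 to 2.13), which rests on 32 counts in 57 DOX nuclei. At a clustering resolution of 1 this cluster split into an unnamed one (33 DOX and 1051 EtOH nuclei) and a smaller LP-like one (25 DOX and 591 EtOH nuclei), each with too few DOX nuclei for a ratio, so the LP-like values depend on the resolution. In the larger HS-like cluster (1.19, -0.34 to 2.71) and in the fibroblast- and basal-marker cluster (0.21, -1.40 to 1.96) the intervals spanned 0. HS-like nuclei, low for Ankrd1, were thus a larger share of EtOH than of DOX, and their part in the ratio over all nuclei was not tested.

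The other promoters varied less between these clusters. Ccn2 was at 39.2 CPM in DOX and 32.2 CPM in EtOH in the LP-like cluster and at 21.7 and 17.8 CPM in the larger HS-like cluster, with intervals of the log2 ratio that spanned 0 in each. Ccn1 was at 30.7 and 30.9 CPM in the LP-like cluster and at 28.5 and 21.4 CPM in the HS-like one, a log2 ratio of 0.42 (0.11 to 0.72). Wwtr1 stood higher in DOX within the LP-like cluster, at 53.0 against 40.6 CPM (log2 ratio 0.38, 0.06 to 0.68), and within the larger HS-like cluster (0.28, 0.02 to 0.55). Tead4 was highest in HS-like nuclei, at 47.3 and 48.2 CPM in the EtOH nuclei of both clusters, and at 36.9 CPM in the DOX nuclei of the larger one, a log2 ratio of -0.36 (-0.62 to -0.11). Tead4 in the LP-like cluster did not differ beyond counting error (-0.10, -0.51 to 0.26).

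**Figure D2:**
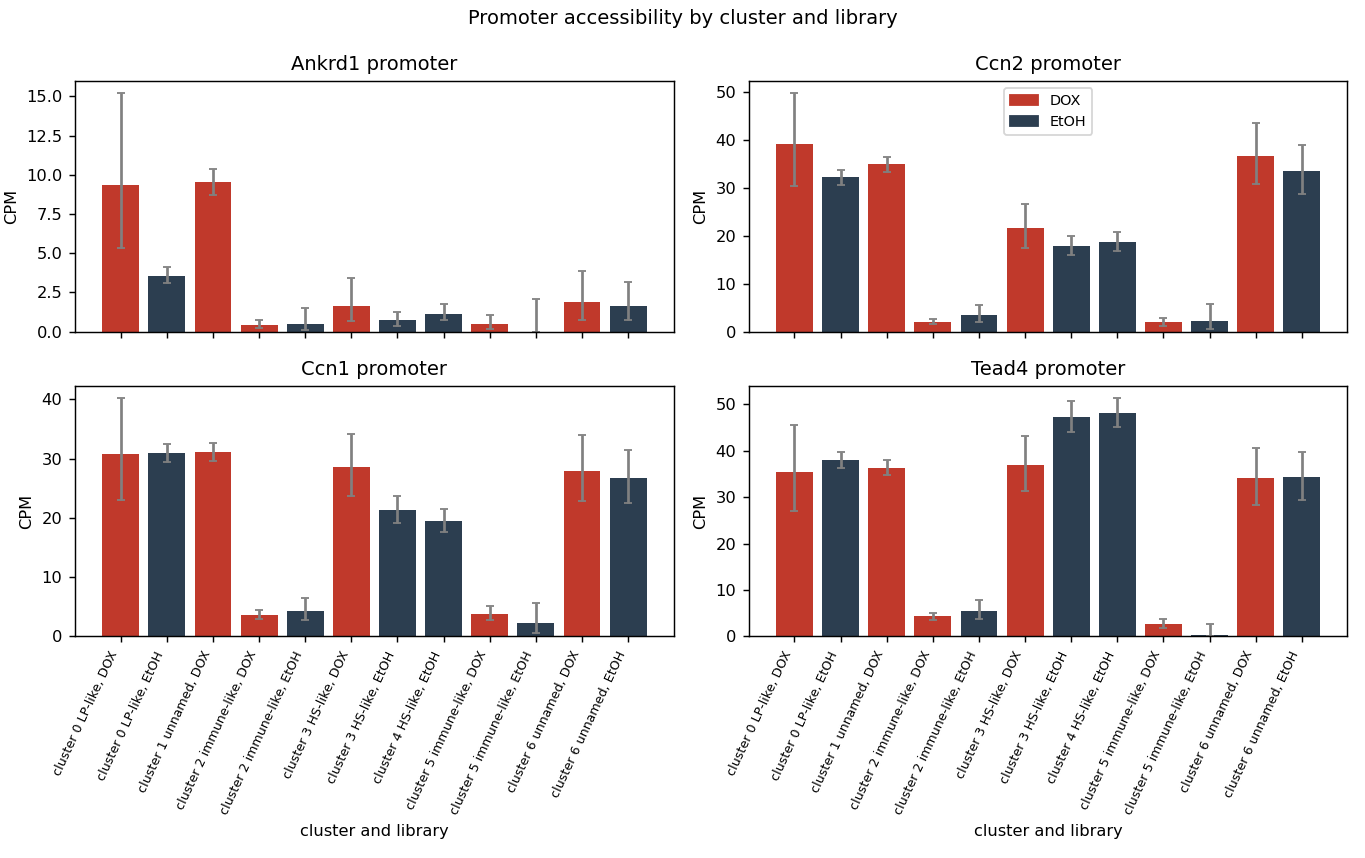
Promoter accessibility in CPM (y axis) of Ankrd1, Ccn2, Ccn1 and Tead4 in each cluster and library with at least 50 nuclei (x axis), as bars from 0 with 95% exact Poisson intervals, DOX in red and EtOH in dark. Ankrd1 is highest in the DOX nuclei of clusters 0 and 1, Tead4 in the EtOH nuclei of clusters 3 and 4, and all 4 are low in clusters 2 and 5.

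Over the 12 groups of cluster and library with at least 50 nuclei, the genes most like each member were found by Pearson's r of log2 promoter CPM. These groups share libraries and are set apart mainly by immune-like against other nuclei, so high values of r are common. Among the genes most like Ankrd1 were Zfp872 (r = 0.95) and Fam84b (r = 0.95). Ccn1 was most like Wwtr1 (r = 0.99), a fellow member. Ccn2 was most like Plppr1 (r = 1.00), and Yap1 most like Stox2 and Fat1 (r = 1.00 each). Ankrd1 was the member least like the others, with r between 0.67 (Tead2 and Tead3) and 0.85 (Wwtr1).

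Over all nuclei, the 220 member regions had a median log2 ratio of -0.36, where all regions compared had -0.13. Of the members, 14 (6.36%) were at least 2-fold higher in DOX and 23 (10.45%) at least 2-fold lower, beside 13% and 13.4% of all 174772 regions. Without immune-open nuclei the median of 219 members was 0.02 (all regions -0.05), with 13 higher (5.94%) and 11 lower (5.02%), beside 6.02% and 7.95% of all 167747 regions. One member, in the Ccn2 window, had under 100 counts there and was not compared. The member counts were at or below the background in both directions. The sign of 71 member regions turned from below to above 0 when the immune-open nuclei were left out, and that of 8 turned the other way. At the 49 promoter regions among the members, 5 were higher and 3 lower over all nuclei (10.2% and 6.12%, beside 8.51% and 6.43% of all promoter regions), and 3 and 2 without immune-open nuclei (6.12% and 4.08%, beside 2.88% and 3.8%). At the distal members, 9 were higher and 20 lower over all nuclei (5.26% and 11.7%, beside 14% and 15% of all distal regions), and 10 and 9 without immune-open nuclei (5.88% and 5.29%, beside 6.77% and 8.96%). Of the promoter regions higher or lower without immune-open nuclei, the Ankrd1 promoter was the only one of a member, and the others belonged to the neighbours Cd37, Ppard and Tulp1. Among the immune-open nuclei alone, 97 of 197 members compared were lower in DOX (49.2%, beside 29.5% of all regions) and 7 higher (3.55%, beside 10.9%), where 84.5% of the immune-open DOX nuclei and 44.8% of those of EtOH lay in the immune-like clusters. Per gene, the medians without immune-open nuclei lay between -0.19 for Tead4 and 0.12 for Ccn2 and Wwtr1.

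**Figure D3:**
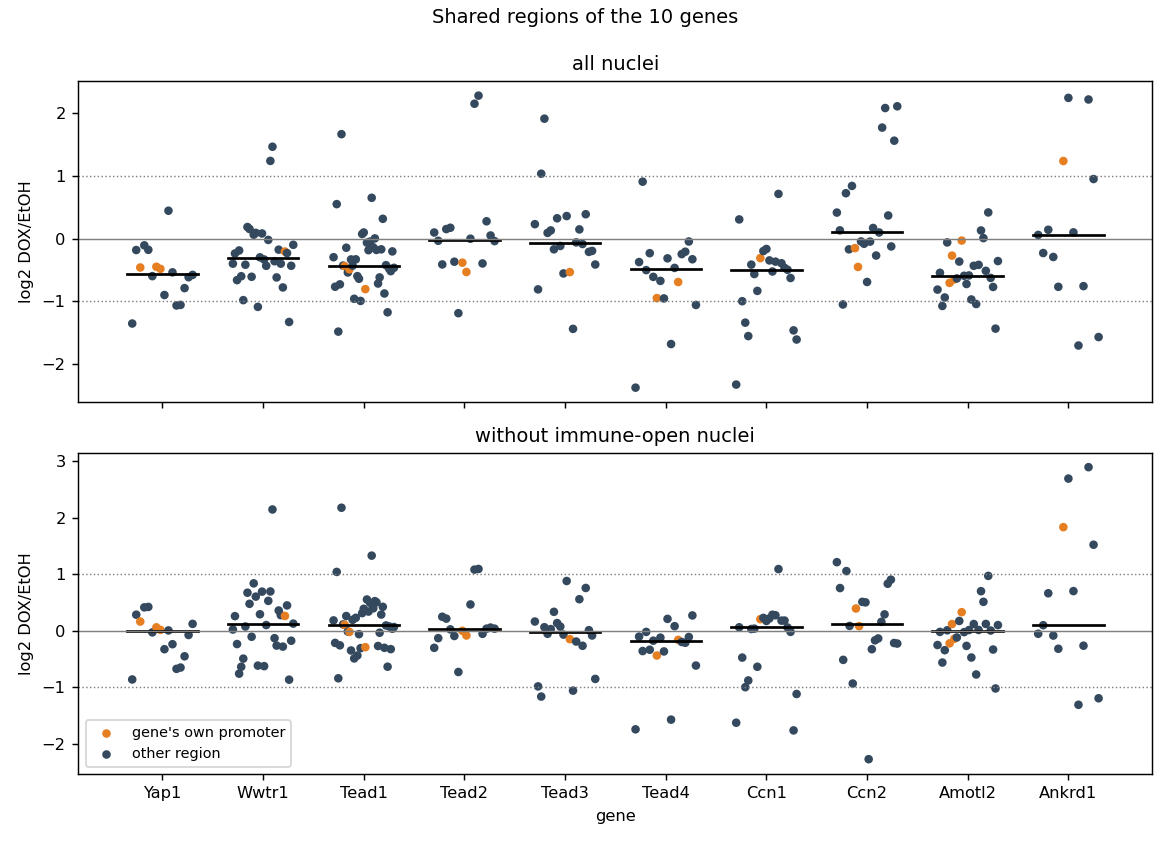
Log2 ratio of DOX over EtOH (y axis) of each shared region of the 10 genes (x axis, regions of a gene in genome order), over all nuclei (top) and without immune-open nuclei (bottom). Orange points are regions at the gene's own promoter, black bars are medians, and dotted lines mark a 2-fold difference. Most genes sit below 0 in the top panel and around 0 in the bottom one, where Ankrd1 has the highest points.

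Without immune-open nuclei the window of Ankrd1 held the largest differences, while over all nuclei single regions of Tead4 (-2.38), Ccn1 (-2.33) and Tead2 (2.28) were farther from 0 than its own farthest (2.25). All 13 of its regions are given here in outline because they were the most divided, a choice made after their values were seen. Without immune-open nuclei, 4 of the 13 were at least 2-fold higher in DOX and 2 at least 2-fold lower, beside 6.02% and 7.95% of all regions. The region with its centre at -20.5 kb (chr19:36140132-36141037, intergenic, with 2 TEAD matches and 1 AP-1 match) was at 5.48 CPM in DOX and 0.734 CPM in EtOH, a log2 ratio of 2.90 (2.49 to 3.33). It is also the region of which 83.0% of the bases are soft-masked as repeats in the reference, so reads from other copies could have been placed there, which was not tested. The region at -7.05 kb (chr19:36126722-36127574, 1 TEAD match and 1 GATA match) was at 4.31 and 0.665 CPM, a log2 ratio of 2.70 (2.27 to 3.17). Of its bases 11.7% are masked. The region at -23.7 kb (1 TEAD match, 2 GATA matches) was at 12.5 and 4.34 CPM (1.53, 1.34 to 1.72). These 3 regions and the promoter drew between 0.844% and 3.15% of their DOX counts from the immune-like clusters.

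The most accessible region of the window, at -9.42 kb, was at 35.9 CPM in DOX and 22.0 CPM in EtOH, a log2 ratio of 0.70 (0.61 to 0.80). Between it and the far upstream region lay 2 that went the other way. The region at -12.8 kb was at 0.843 and 2.09 CPM, a log2 ratio of -1.31 (-1.80 to -0.81), from 91 DOX and 330 EtOH counts. Of its bases 69.6% are masked, so the limit on the placing of reads holds for it as well. The region at -13.9 kb was at 6.16 and 7.39 CPM (-0.26, -0.46 to -0.07). The outermost region, at -30.6 kb, was lower in DOX as well (1.195 and 2.73 CPM, log2 ratio -1.19, -1.63 to -0.80). Downstream of the TSS, the 5 regions including the promoter of the neighbour Rpp30 had log2 ratios between -0.32 and 0.67, and that of Rpp30 itself was -0.05. Summed over the 13 regions, Ankrd1 had a log2 ratio of 0.12 over all nuclei and 0.56 (0.50 to 0.61) without immune-open nuclei. The second value was the highest of the 10 genes, while over all nuclei Ccn2 (0.31) and Tead2 (0.13) were higher. Of the 13 regions 9 held a TEAD match (69.2%, with 43.6% of all shared regions of like width) and 7 a GATA match (53.8%, with 37.7%).

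**Figure D4:**
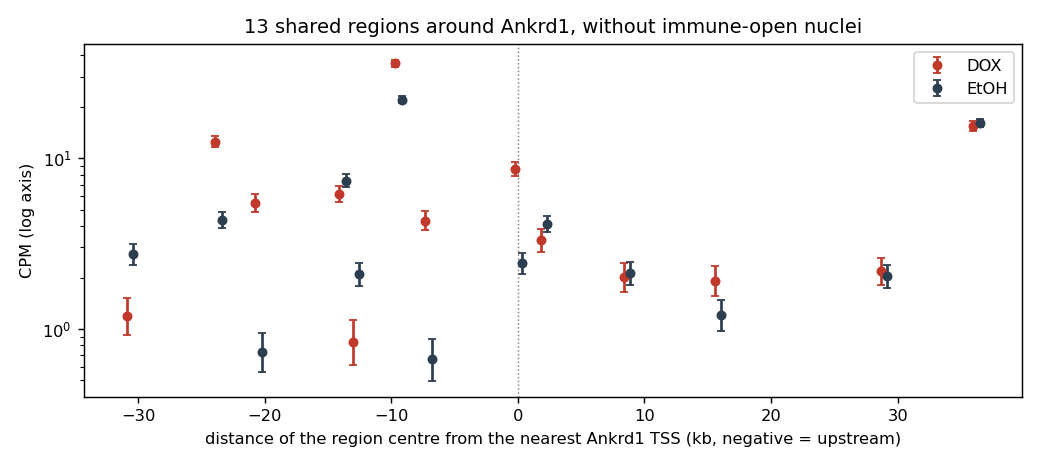
Accessibility in CPM on a log axis (y axis) of the 13 shared regions around Ankrd1 against the distance of the region centre from the nearest TSS in kb (x axis, negative is upstream), without immune-open nuclei, with 95% exact Poisson intervals, DOX in red and EtOH in dark. DOX is farthest above EtOH at -20.5 kb, -7.05 kb, the promoter and -23.7 kb, and farthest below it at -12.8 kb and -30.6 kb.

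Among the factor genes without immune-open nuclei, Wwtr1 had 1 of 30 regions at least 2-fold higher in DOX, Tead1 3 of 39 and Tead2 2 of 16, and none lower. Tead3 had 2 of 20 at least 2-fold lower and none higher. Of all regions 6.02% were higher and 7.95% lower. The called Tead2 regions lay at the promoter of the neighbour Cd37, and the called Tead3 regions at promoters of the neighbours Ppard and Tulp1. The region chr7:45238595-45239514 at Cd37 was at 45.1 CPM in DOX and 43.9 CPM in EtOH in the larger immune-like cluster. It was at 0.800 CPM in the unnamed DOX cluster. Of the immune-like clusters, 81 DOX and 31 EtOH nuclei stayed in this set, and their part in the Tead2 values was not tested. In Wwtr1, the intron region at 21.2 kb from the TSS (chr3:57554116-57555084, 2 GATA matches) was at 8.06 CPM in DOX and 1.82 CPM in EtOH without immune-open nuclei, a log2 ratio of 2.15 (1.87 to 2.43). Over all nuclei its ratio was 1.47. The lowest Wwtr1 region, at -36.8 kb, had a log2 ratio of -0.86. In Tead1, the region at -22.8 kb (chr7:112656078-112656968, 2 TEAD matches and 1 GATA match) was at 13.6 and 3.01 CPM (2.18, 1.97 to 2.40). A further pair of Tead1 regions passed 2-fold, an intronic one at 29.0 kb (13.8 and 5.50 CPM; 1.33) and one at -35.1 kb (7.54 and 3.66 CPM; 1.04), named after their values were seen. In Yap1, none of the 16 regions was 2-fold apart without immune-open nuclei, and its lowest and highest named regions were at -0.86 and 0.42.

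In Tead4 the region farthest from 0 was lower in DOX. This intron region near the end of the gene (chr6:128225345-128226248, 4 TEAD matches in the whole region) was at 3.02 CPM in DOX and 10.1 CPM in EtOH, a log2 ratio of -1.74 (-2.00 to -1.50), and -2.38 over all nuclei. Of the 18 Tead4 regions 2 were at least 2-fold lower without immune-open nuclei and none was at least 2-fold higher, beside 7.95% and 6.02% of all regions, and the sum over them had a log2 ratio of -0.18 (-0.22 to -0.14). For Tead2 and Tead3, the regions with the highest ratios over all nuclei lay at promoters of neighbours. That in the Tead2 window (chr7:45238595-45239514) is the promoter of Cd37, a leukocyte tetraspanin, and drew 96.7% of its DOX counts from the immune-like clusters. That in the Tead3 window (chr17:28294202-28295116) lies at a promoter of Ppard and drew 97.1% from them, and its log2 ratio went from 1.92 to 0.06 without immune-open nuclei. These values belong to the window and not to the TEAD genes themselves.

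The matricellular genes had distal sums of opposite sign. The distal regions of Ccn1 summed to a log2 ratio of -0.20 (-0.25 to -0.15) without immune-open nuclei and those of Ccn2 to 0.24 (0.17 to 0.32), while both promoters stood slightly higher in DOX. Region by region, with the promoters included, the genes were alike. The median there was 0.06 for Ccn1, with 13 of 21 regions above 0, and 0.12 for Ccn2, with 12 of 20. Around Ccn1, the region at -42.2 kb (chr3:145691770-145692530, 2 AP-1 matches) was at 0.834 CPM in DOX and 2.83 CPM in EtOH (-1.76, -2.26 to -1.30), and 48.0% of its DOX counts over all nuclei came from the immune-like clusters. The region at 48.4 kb, within the neighbouring gene Znhit6, was at 1.16 and 3.58 CPM (-1.63, -2.06 to -1.23). The highest Ccn1 region, at -24.9 kb, was at 1.30 and 0.608 CPM (1.09, 0.54 to 1.65). Of the 21 Ccn1 regions 12 held an AP-1 match (57.1%, with 34.8% of all regions of like width).

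Around Ccn2, the region with the highest ratio over all nuclei, at 47.3 kb and within the neighbour Enpp1, went from a log2 ratio of 2.11 to 0.71 (-0.16 to 1.66, under 100 counts) and drew 96.0% of its DOX counts from the immune-like clusters. The region at -3.08 kb (2 AP-1 matches) went from 0.84 to -0.93 (-1.54 to -0.39), and 83.8% of its DOX counts came from those clusters. Without immune-open nuclei the only Ccn2 region at least 2-fold lower was at 14.01 kb (0.130 and 0.627 CPM, -2.27), which has few counts and was named after its values were seen. The highest was at -42.5 kb, at 1.18 CPM in DOX and 0.506 CPM in EtOH (1.22, 0.64 to 1.84). Among the Amotl2 regions, that at 39.7 kb was the highest, at 7.21 and 3.67 CPM (0.97), and that at 47.2 kb (3 TEAD matches) the lowest, at 1.19 and 2.41 CPM (-1.02, -1.45 to -0.60). The 26 regions of Amotl2 summed to a log2 ratio of -0.04 (-0.07 to -0.01).

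The called regions had different homes among the clusters. The Tead1 region at -22.8 kb was at 14.6 CPM in the unnamed DOX cluster and at 2.34 and 2.60 CPM in the DOX and EtOH nuclei of the LP-like cluster. In the fibroblast- and basal-marker cluster it was at 24.4 CPM in DOX and 8.14 CPM in EtOH. The Wwtr1 intron region was at 7.62 CPM in the unnamed DOX cluster, at 1.17 and 0.918 CPM in the LP-like cluster, and at 18.6 and 16.5 CPM in the fibroblast- and basal-marker cluster. The Ankrd1 region at -23.7 kb was at 13 CPM in the unnamed DOX cluster, at 2.93 and 2.62 CPM in the LP-like cluster, and at 25.3 and 30.9 CPM in the fibroblast- and basal-marker cluster. These 3 regions were thus open in EtOH too, in the fibroblast- and basal-marker nuclei.

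The Ankrd1 region at -20.5 kb was at 5.68 CPM in the unnamed DOX cluster and at 0.283 CPM in the EtOH nuclei of the LP-like cluster, with no count in the 57 DOX nuclei, which allows up to 2.16 CPM. It was at 8.89 and 4.88 CPM in the fibroblast- and basal-marker cluster. The promoter of Ankrd1 had another order, at 9.37 CPM in the LP-like DOX nuclei and 1.88 CPM in the DOX nuclei of the fibroblast- and basal-marker cluster. The Tead4 intron region belonged to the HS-like nuclei, at 19.0 CPM in DOX and 31.6 CPM in EtOH in the larger cluster and 21.6 CPM in the other, and was at 1.64 to 2.34 CPM in the LP-like cluster. The Ccn1 region at -42.2 kb was likewise highest in the larger HS-like cluster, at 5.42 and 9.91 CPM. Since HS-like nuclei were fewer in DOX, the part of their number in both differences was not tested.

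**Figure D5:**
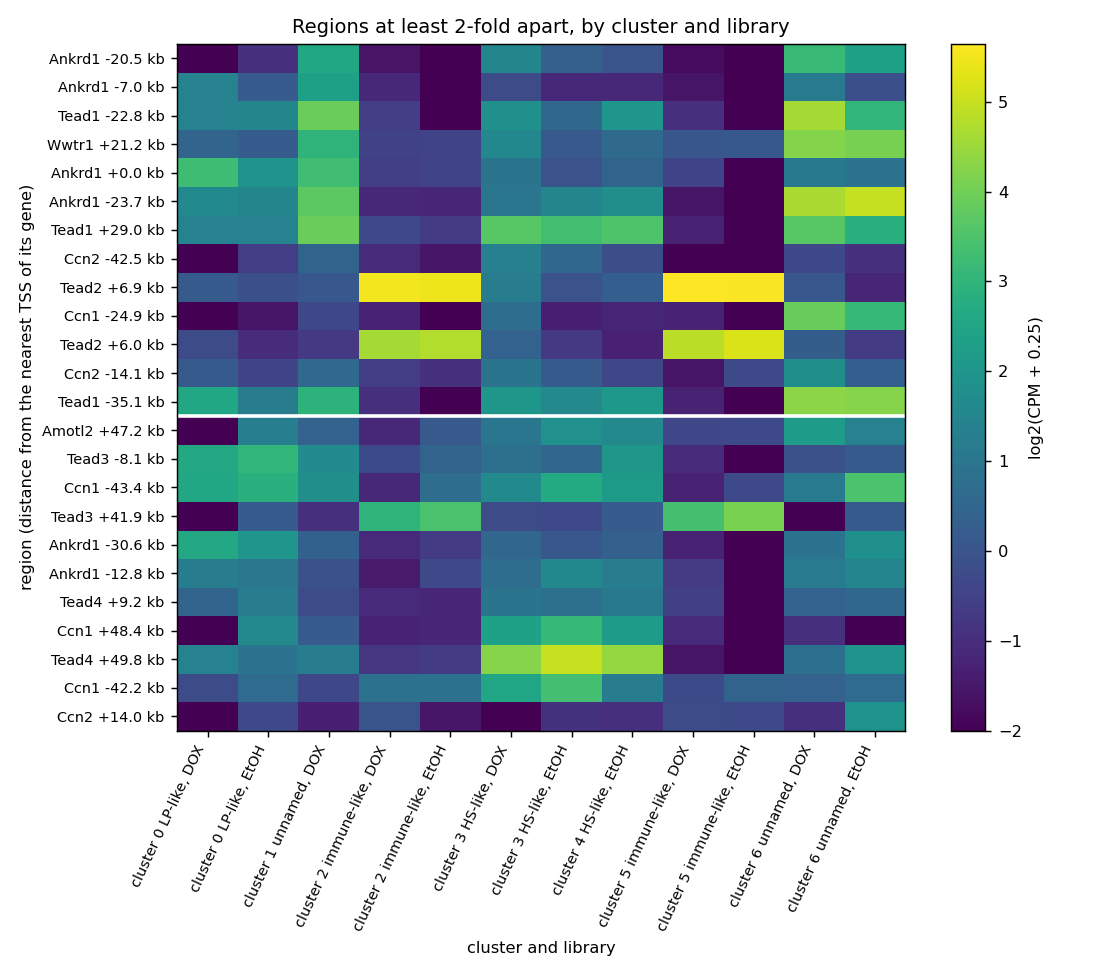
Accessibility, as log2(CPM + 0.25) in colour, of the 24 regions of the 10 genes that were at least 2-fold apart without immune-open nuclei (y axis, ordered by ratio, the 13 higher in DOX above the white line and the 11 lower ones under it) in each cluster and library with at least 50 nuclei (x axis). LP-like is luminal progenitor-like and HS-like is hormone-sensing luminal-like. The higher Tead1 and Wwtr1 regions and the Ankrd1 region at -23.7 kb are bright in cluster 1 of DOX and in cluster 6 of both libraries. The Tead2 regions are bright in the immune-like clusters 2 and 5. The intronic Tead1 region (12.4 CPM in DOX and 6.99 CPM in EtOH in cluster 6) is also bright in HS-like cluster 3 (12.4 and 9.88 CPM) and in EtOH of cluster 4 (11.3 CPM).

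Motif matches were counted in the whole sequence of the member regions. A TEAD match was in 101 of 220 (45.9%, beside 43.6% of all shared regions of like width), an AP-1 match in 79 (35.9%, 34.6%), a GATA match in 74 (33.6%, 38.0%) and a CArG match in 16 (7.27%, 4.61%). By gene, the TEAD share ranged from 28.6% of the Ccn2 regions to 69.2% of those of Ankrd1. Among the distal members without immune-open nuclei, those with a GATA match had a median log2 ratio of 0.18, with 8 of 67 higher and 1 lower by at least 2-fold. Those without one had a median of -0.03, with 2 of 103 higher and 8 lower. Over all distal regions the shares were 9.41% higher and 8.66% lower with a GATA match, and 4.88% and 9.17% without. Distal members with a TEAD match had a median of 0.06, with 8 of 76 higher and 4 lower, and those without one of -0.04, with 2 of 94 higher and 5 lower. All distal regions had 7.37% higher and 8.83% lower with a TEAD match and 6.26% and 9.06% without. Over all nuclei, distal members with a GATA match had a median of -0.31, with 4 of 67 higher and 3 lower. Those without one had -0.41, with 5 of 104 higher and 17 lower. With a TEAD match 6 of 77 were higher and 9 lower there, and without one 3 of 94 and 11. All distal regions then had 14.7% higher and 14.4% lower with a GATA match, and 12.8% and 15.3% with a TEAD match. Several of these regions hold both motifs, and regions of 1 gene are not independent. A match is a description of the letters and does not show that a factor was bound.

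Regions called in 1 library only have no deposited count in the other and entered no ratio. The 10 genes had 21 such regions in DOX and 52 in EtOH. Of their 293 merged regions, 220 had a peak in both libraries, where 174940 of all 275294 merged regions had one. EtOH also had more peaks in all, 229746 against 223161 in DOX. The split of all such regions by library is not given here, so 21 and 52 were not read against it. The strongest of EtOH lay in Tead1 (1188 counts) and the strongest of DOX also in Tead1 (657 counts).

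The wider pathway was followed with 2 lists written for this description. At the promoters of 26 Hippo kinases, adaptors and regulators, such as the kinases Lats1 and Lats2 and the scaffold Nf2, the median log2 ratio was 0.06 over all nuclei and -0.01 without immune-open nuclei, where all promoters had 0.09 and 0.01. None of the 26 was 1.5-fold apart without immune-open nuclei, beside 2.55% of all promoters higher and 2.21% lower by that fold. The highest were Ptpn14, a phosphatase that binds YAP, at 38.5 CPM in DOX and 29.9 CPM in EtOH (0.37), Vgll3, a TEAD cofactor, at 12.3 and 10.2 CPM (0.26), and the kinase Tnik at 22.7 and 19.6 CPM (0.21). The lowest were the cadherin Dchs1 at 2.71 and 3.65 CPM (-0.43), the adaptor Sav1 at 26.9 and 31.2 CPM (-0.21), and Amotl1, the angiomotin related to Amotl2, at 34.5 and 40.0 CPM (-0.21). Over all nuclei Amotl1 was at -0.76 and Fat1 at -0.59, the 2 that were 1.5-fold lower, where 6.02% of all promoters were lower and 6.22% higher by that fold.

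A list of 20 further YAP targets had a median of -0.09 over all nuclei and 0.03 without immune-open nuclei. Over all nuclei 2 were at least 1.5-fold higher and 2 lower, beside 6.22% and 6.02% of all promoters, and without immune-open nuclei 1 was higher and 2 lower, beside 2.55% and 2.21%. The forkhead gene Foxf2 was at 3.41 CPM in DOX and 1.84 CPM in EtOH (0.89, 0.56 to 1.21), Tgfb2 at 21.01 and 17.8 CPM (0.24), and the receptor kinase Axl at 4.21 and 3.61 CPM (0.22, -0.04 to 0.48). Axl had been at 0.79 over all nuclei. The secreted Ccdc80 was at 0.704 and 2.08 CPM (-1.56), Fstl1 at 18.4 and 28.3 CPM (-0.62), and the kinase Nuak2 at 24.8 and 27.7 CPM (-0.16). Without immune-open nuclei Ankrd1 was farther from 0 than any gene of both lists, while over all nuclei Foxf2 (1.48) was farther.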

How the data were processed

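Nuclei of 2 single-cell ATAC-seq libraries, DOX and EtOH, were analysed from the deposited peak-by-barcode matrices of counts, which the authors made with Cell Ranger ATAC (2.0.0 per the file headers) on mm10. The counts are transposition events in peaks called per library and are not normalized. Both ends of a fragment are usually counted, so intervals were computed from counts divided by 2. Peaks were merged where they overlapped by 1 bp, giving 275294 regions, and the 174940 with a peak in both libraries were kept (94.7% of DOX and 94.8% of EtOH counts). Counts were scaled to CPM in these regions. With 1 library per group no test was run, and a region with at least 100 counts was called when at least 2-fold apart. Log2 ratios have exact conditional binomial intervals, CPM exact Poisson intervals and shares Clopper-Pearson intervals, all for counting error only.

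Nuclei were clustered on latent semantic components 2 to 30 (15 neighbours, Leiden resolution 0.5; scikit-learn 1.9.0, leidenalg 0.10.2) and named from fixed marker lists. No doublet caller was run. Genes and start sites were those of GENCODE on mm10. Code was tested on simulated data. Named were the 10 genes, the region of each with the highest and the lowest ratio in each set of nuclei among those with at least 200 counts, the genes most like a member by promoter level, and the 3 highest and 3 lowest genes of each list. One gene that this rule names is not reported here. The members and lists were chosen with earlier results of these data known. Alternatives covered scaling, the count minimum, the window, the immune rule, depth, the overlap of peaks, the promoter width and the clustering.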

Additional observations from a re-analysis of the deposited data

Results flagged for a closer look

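Summed over its 13 regions, Ankrd1 had a log2 ratio of DOX over EtOH of 0.57 (0.52 to 0.62) in nuclei outside the immune-like clusters and of -0.23 (-0.44 to -0.0042) in the immune-like clusters. The sign is opposite in these classes of nuclei, and both intervals lie away from 0. In each of the 2 immune-like clusters alone the interval spanned 0 (-0.19, -0.44 to 0.07, and -0.34, -0.76 to 0.08). Of the 2091 DOX and 421 EtOH counts inside both, the Ankrd1 promoter held 36 and 5 and its 11 distal regions 446 and 85. Their log2 ratios were 0.31 (-1.43 to 3.78) and -0.15 (-0.61 to 0.38), with intervals that spanned 0. Most of the sum inside thus lay in the remaining region, at the promoter of the neighbour Rpp30. Opposite signs also occurred for the loci of Wwtr1 (0.21 outside and -0.05 inside), Ccn2 (0.26 and -0.05), Ccn1 (-0.07 and 0.12) and Yap1 (-0.03 and 0.06), with intervals that spanned 0 inside. With 1 library per group the difference between them was not tested. The immune-like clusters held 1283 DOX and 283 EtOH nuclei.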

How the results depend on the processing

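No paired analysis was possible because DOX and EtOH had 1 library apiece, so none could be left out either. With the median ratio of all regions set to 0, which moved all ratios by 0.13 over all nuclei and by 0.05 without immune-open nuclei, the median of the member regions over all nuclei was -0.23. By nuclei with any count, 5 member regions were at least 2-fold lower without immune-open nuclei. A minimum of 500 counts left 8 higher and 7 lower there, where fewer regions could be compared. Within 10 kb, 6 were higher and 6 lower over all nuclei, and 6 higher and 3 lower without immune-open nuclei. The shares of all regions under these settings are not given here, so these counts were not read against a background. With immune-open defined at all 3 genes, the median without these nuclei was -0.056. The share of immune-open nuclei was 26.9% in DOX and 6.59% in EtOH after thinning, 69.1% and 52.0% with any 1 gene, and 31.1% and 6.19% with all 3 genes. The other 48 such values changed little. Of 280 promoter and locus ratios of single genes, 89 moved beyond their counting interval, 31 of them without immune-open nuclei, and 17 changed sign, all with values between -0.04 and 0.06. The cause of these changes was not tested. The Ankrd1 promoter ratio without immune-open nuclei ranged from 0.87 (promoter within 2500 bp) to 1.93. At a resolution of 1 the immune-like clusters held the same number of nuclei (1283 and 283) and the HS-like ones 231 DOX and 1011 EtOH nuclei. The promoter levels of both classes moved by less than their counting intervals, and those of the LP-like cluster, which split, were not compared.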
